A study of Mus musculus with 6 samples.

Results

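Very large genes that lie in or near chromosomal fragile sites were followed probe by probe through the DNA of 5 mouse malignant mesotheliomas, tumours of the lining of the body cavities. The list named 9 such genes, and a gene was kept where the probe annotation of the denser array design gives its symbol for at least 1 probe. Probes were found for 7 of the 9, namely Fhit, Wwox, Immp2l, Ptprd, Csmd1, Lrp1b and Cntnap2, and none carried the symbols Magi2 or Dlg2. The 7 genes are among 24783 autosomal genes with a probe, and they hold 1178 of the 220065 autosomal probes of the denser design. Of these, 17 are also on the sparser design.

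Common fragile sites are stretches of chromosomes that form gaps and breaks when DNA replication is slowed, and many of them lie inside genes of extreme length. In human tumours the genes FHIT and WWOX, which span 2 of the best known sites, often carry deletions confined to the inside of the gene, so that a few exons are lost while the neighbouring genes stay. A loss of that kind lowers a run of probes inside the gene below the probes on both sides, which is what was looked for here.

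The tumours are titled ARF-129, ARF-128, ARF-112, ARF-110 and ARF-104 and form 1 group, in which the study looked for shared gains and losses. The study's title calls the tumours asbestos-induced and the mice Arf knock-outs, while its design text speaks of 4 Arf(+/-) mice. That is 1 fewer than the titles, and whether a title lies outside the 4 or titles share a mouse is not given. Primary mesothelioma cells are named for 4 of the tumours and no cell type for ARF-104. The tumour DNA was labelled with Cy5 and bought C57BL/6J mouse DNA with Cy3 on each array, without a dye swap, so that a positive log2 ratio means more DNA in the tumour. Loss of 1 copy by every cell of a diploid tumour would give -1 and gain of 1 copy 0.58. No source used here states the strain of the tumour mice, and each tumour was set against the same C57BL/6J DNA, so inherited differences from C57BL/6J and changes in the tumour cannot be told apart in what the tumours share.

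The denser design was used for ARF-129, ARF-112, ARF-104 and ARF-128, and the sparser one for ARF-110 and a second time for ARF-128. ARF-128 is represented by its denser array, titled ARF-128PlusMinus, unless stated. The probe noise, an SD estimated from neighbouring probes, ran from 0.152 in ARF-110 to 0.774 in ARF-128, and the median red signal over its background from 4.11 in ARF-128 to 11.1 in ARF-104. The 3 scan days split the arrays into both sparser arrays, the 3 denser arrays other than ARF-128, and ARF-128, so design and scan day cannot be told apart for ARF-110. In ARF-110 a gene's value rests on the 1 to 4 probes that the sparser design has for it. Over the 17 shared probes the mean, less the chromosome's median, was below 0 on each array, from -0.33 to -0.19. From the denser to the sparser array of ARF-128 the mean of Immp2l went from -0.03 to -0.58 and that of Wwox from 0.32 to -0.05. Fhit went from 0.03 to 0.21 and Ptprd from 0.09 to 0.14. The values of ARF-110 are thus not like for like with the denser arrays.

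The sequences of the probes with the lowest mean ratio in each gene are shown as a description. With them are 2 more probes of the lowest stretch of Lrp1b and 2 low probes that both designs share. All were picked for their values, and the search for losses inside the genes rests on runs of at least 5 probes instead. The sequences are given as the deposited annotation writes them, with no strand stated, and capitals mark runs of at least 4 T. Positions are mm7, and no source used here says whether a probe lies in an exon or an intron.
Fhit, chr14:8186567-8186626: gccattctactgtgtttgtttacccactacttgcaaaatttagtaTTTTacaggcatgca
Wwox, chr8:113685590-113685649: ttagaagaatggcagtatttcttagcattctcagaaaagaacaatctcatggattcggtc
Immp2l, chr12:39151579-39151638: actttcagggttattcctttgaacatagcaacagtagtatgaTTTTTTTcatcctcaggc
Ptprd, chr4:75785877-75785936: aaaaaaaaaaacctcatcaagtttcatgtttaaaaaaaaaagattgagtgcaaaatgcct
Csmd1, chr8:16142703-16142762: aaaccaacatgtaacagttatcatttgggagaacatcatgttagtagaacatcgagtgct
Lrp1b, chr2:40991608-40991667: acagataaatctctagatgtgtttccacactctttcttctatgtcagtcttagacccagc
Cntnap2, chr6:47299074-47299133: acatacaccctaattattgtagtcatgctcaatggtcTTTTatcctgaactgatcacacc
Lrp1b, same stretch, chr2:41005347-41005406: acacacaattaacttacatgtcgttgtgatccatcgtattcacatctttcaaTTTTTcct
Lrp1b, same stretch, chr2:41011833-41011892: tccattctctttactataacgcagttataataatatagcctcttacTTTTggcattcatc
Lrp1b, both designs, chr2:40880878-40880937: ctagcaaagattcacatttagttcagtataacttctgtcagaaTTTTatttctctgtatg
Immp2l, both designs, chr12:39295813-39295872: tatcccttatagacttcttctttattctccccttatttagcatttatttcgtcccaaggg

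When each tumour was segmented on its own, no loss bounded inside any of the 7 genes was found in any of the 5 tumours. On values relative to the other tumours, which is a different measure, 1 pair (Cntnap2 in ARF-112) passed the limit for a loss, as described at the end. Each chromosome was divided into segments of constant ratio, and a loss inside a gene was counted where a segment at least 0.25 below the chromosome's median began or ended between the gene's first and last probe. This was so in 0 of 35 gene-by-tumour pairs, against 0.419% of the 6920 pairs formed by autosomal genes with at least 20 probes. Without ARF-110, whose sparser design cannot show a loss that lies wholly inside a gene, it was so in 0 of 28 pairs. With so small a share among other genes, a count of 0 does not set the 7 genes apart. A segment boundary of any kind inside the gene was likewise found in 0 of 35 pairs, against 0.853% of those 6920. With normexp background correction 1 of the 35 pairs, Cntnap2 in ARF-112, had a boundary inside the gene without a loss by the criterion, against 1.79% of the 6920 pairs under that setting. Without that correction each of the 7 genes lay whole on 1 segment in each tumour, and that segment was between 4.83 and 179 Mb long.

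The noise sets what such a search can see. For a loss of 20 probes inside a gene, the smallest shift that the segmentation could separate was 1.71 in ARF-128, 1.07 in ARF-129, 0.87 in ARF-112 and 0.81 in ARF-104. For 50 probes it was 1.08, 0.68, 0.55 and 0.51 in the same order, and for 100 probes 0.76, 0.48, 0.39 and 0.36. A loss of 1 copy in every cell would therefore pass at 20 probes in ARF-104 and ARF-112, just miss in ARF-129 and be missed in ARF-128. Shifts smaller than these limits, which a loss in part of the cells gives, were not detectable at the matching length. In ARF-110, with at most 4 probes a gene, a loss that lies wholly inside a gene cannot be seen.

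The level of each gene as a whole was compared with the part of the chromosome in which it lies. A gene's level is the mean log2 ratio of its probes, and it was set against the median of the other probes of its chromosome and against its flanks, the probes within 2 Mb on either side. Both differences were tested against 0 over all genes with limma's moderated test and Benjamini-Hochberg adjustment. Against the chromosome 0 of the 7 genes were called lower and 0 higher, where 6.46% of 19972 genes were called lower and 6.15% higher. Against the flanks 0 were called lower and 0 higher, where 9.85% of 19953 genes were called lower and 7.37% higher. Among genes with at least 20 probes, which are closer to the 7 in probe number, the shares were smaller. Against the chromosome 0.76% of 1315 were lower and 0.23% higher, and against the flanks 2.6% of 1310 and 0.61%. Without adjustment 1 of the 7 (Lrp1b, lower) passed 0.05 against the chromosome and 0 in either direction against the flanks. At that threshold 19.4% of all genes were lower and 17.5% higher than the chromosome, and 22.6% lower and 17.9% higher than the flanks. The median difference of the 7 genes was -0.09 against the chromosome and -0.07 against the flanks, and over all genes tested it was -0.01 and -0.02. With the scan day as a random block the consensus correlation was 0.77 and 0.87, and 0 genes of the whole table were called in either comparison. A gene's level less the mean of its segment ran from -0.34 in ARF-110 to 0.31 in ARF-128, both for Csmd1. The value in ARF-110 rests on 2 probes.

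**Figure D1:**
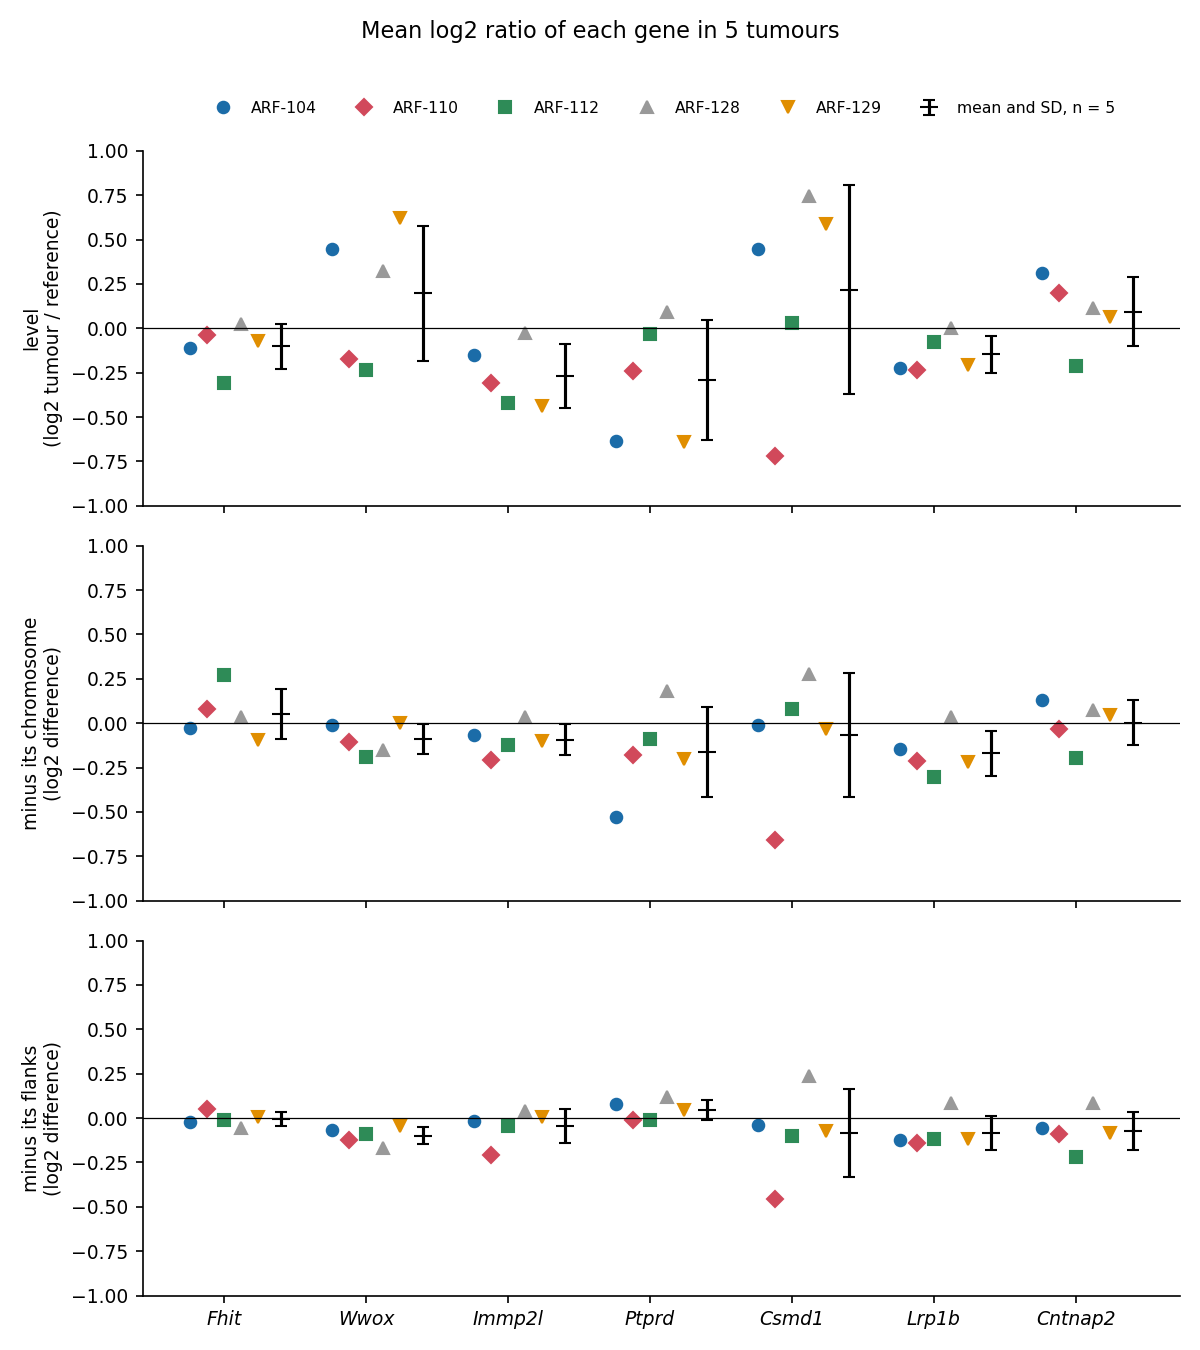
Level of each gene in log2 tumour over reference (top), level minus its chromosome's median (middle) and minus its flanks (bottom), with 1 point per tumour and the mean and SD of 5 tumours in black. Levels spread widely for Wwox, Csmd1 and Ptprd, and against the flanks most points lie within 0.25 of 0, with Csmd1 in ARF-110, read by 2 probes, at -0.46.

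Fhit encodes a hydrolase of dinucleoside polyphosphates and is regarded as a tumour suppressor. Its 116 probes on the denser design lie at chr14:7380567-8973392, with 13 below the midpoint of that span, 103 above it and a gap of 359.9 kb after the first probe. From low to high, its level was -0.31 in ARF-112, -0.11 in ARF-104, -0.07 in ARF-129, -0.04 in ARF-110 and 0.03 in ARF-128. ARF-112 stood lowest, and there the gene belonged to a segment of 1699 probes at -0.27 while the chromosome's median was -0.58. Against its flanks Fhit was at -0.01, -0.02, 0.01, 0.05 and -0.05 in the same order of tumours, a mean of -0.01 ± 0.04 (SD, n = 5; limma adjusted p = 0.92). Its values lay on both sides of 0, with the smallest spread of the 7 genes.

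Wwox encodes an oxidoreductase with WW domains that binds other proteins, and in human tumours it is the second classic fragile-site gene. It had 119 probes at chr8:113057324-113965065. Its level was -0.24 in ARF-112, -0.17 in ARF-110, 0.32 in ARF-128, 0.44 in ARF-104 and 0.62 in ARF-129, so it was high in the 3 tumours whose chromosome 8 was gained, where the chromosome's median was 0.47, 0.45 and 0.62. Against its flanks it was at -0.09, -0.12, -0.17, -0.07 and -0.05 in that order, below 0 in 5 of 5 tumours and the only one of the 7 genes of which this held. How many of all genes lie below their flanks in each tumour was not counted. Of all 219850 probes, 29.9% were below their chromosome's median in all 4 tumours of the denser design, so a shared sign is common here. The mean of Wwox against its flanks was -0.10 ± 0.05 (SD, n = 5), which did not pass the test over all genes (limma adjusted p = 0.15). The exact two-sided sign-flip permutation test gave p = 0.0625, the smallest that 5 tumours allow. Any 5 values of the same sign give that p, so it adds nothing to the count of signs. With normexp background correction the mean was 0.0089, so the direction did not hold under that setting.

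Immp2l encodes a subunit of the peptidase that trims proteins at the inner mitochondrial membrane. It had 127 probes at chr12:38857588-39831427. ARF-129 had a level of -0.44, ARF-112 of -0.42, ARF-110 of -0.31, ARF-104 of -0.15 and ARF-128 of -0.03, below 0 in each. In ARF-129 and ARF-112 it lay on segments of 49.0 and 43.2 Mb with means of -0.47 and -0.43, so the low level was shared with much of chromosome 12. Against its flanks it was at 0.01, -0.04, -0.21, -0.01 and 0.04 in that order, a mean of -0.04 ± 0.10 (SD, n = 5; limma adjusted p = 0.56).

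Ptprd encodes a receptor-type protein tyrosine phosphatase. Its 68 probes span chr4:75345523-75988297, which is the stretch that the annotation assigns to it and which holds a gap of 150.2 kb. Its level was -0.64 both in ARF-104 and in ARF-129, while ARF-110 had -0.24, ARF-112 -0.03 and ARF-128 0.09. The 2 lowest tumours held it inside large lost segments, chr4:62920497-80797237 with 1175 probes at -0.70 in ARF-104 and chr4:65440538-93583826 with 2043 probes at -0.62 in ARF-129. Against its flanks it was at 0.08 in ARF-104 and 0.05 in ARF-129, at -0.01 in both ARF-110 and ARF-112, and at 0.12 for ARF-128, a mean of 0.04 ± 0.06 (SD, n = 5; limma adjusted p = 0.49). Its loss in ARF-104 and ARF-129 therefore ran through the gene and on over its neighbours.

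Csmd1 encodes a large membrane protein with CUB and sushi domains that restrains complement. It had 217 probes at chr8:15875020-17505403. ARF-110 had a level of -0.72, ARF-112 of 0.03, ARF-104 of 0.45, ARF-129 of 0.59 and ARF-128 of 0.74, the widest spread of the 7 genes. As for Wwox, the 3 high tumours were those with a gained chromosome 8. Against its flanks it was at -0.46, -0.10, -0.04, -0.07 and 0.24 in that order, a mean of -0.09 ± 0.25 (SD, n = 5; limma adjusted p = 0.53). ARF-110 stood lowest, its value rests on 2 probes, and without it the mean was 0.0065. On the sparser array of ARF-128, read by the same 2 probes, Csmd1 was at -0.44 against its flanks, with a level of -0.15. The denser array of ARF-128 gave 0.24 and 0.74, so the low value was not particular to ARF-110.

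In ARF-110 a break in copy number lay close beside Csmd1. A lost segment of 48.2 Mb, chr8:15866718-64056406 with 584 probes at -0.38, began 8.30 kb before the gene's first probe. The sparser design has no probe in the 778 kb before that point, so where in that gap the break lies is not resolved. The 20 probes after the gene averaged -0.38 ± 0.21, against 0.00 ± 0.20 for the 20 probes before the gap (SD over probes of 1 array). The 2 Csmd1 probes were at -1.06 and -0.38. The lower of them was low on the other arrays too: less the chromosome's median it was at -0.99 in ARF-110, and at -0.68 in ARF-129, -0.63 in ARF-112, -0.79 in ARF-104, and -1.87 (denser) and -1.16 (sparser) in ARF-128. In the other tumours the same 20 probes after and 20 before averaged 0.34 and 0.59 in ARF-129, -0.03 and 0.04 in ARF-112, 0.31 and 0.35 in ARF-104, and 0.18 and 0.27 in ARF-128. With each tumour segmented on its own, the segment boundary nearest to the gene in those 4 tumours lay 18413 kb beyond its last probe. After subtraction of the other tumours, as described at the end, boundaries in ARF-112 lay nearer. There the gene was on a segment of 276 probes at 0.01, chr8:15078044-18163884.

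**Figure D2:**
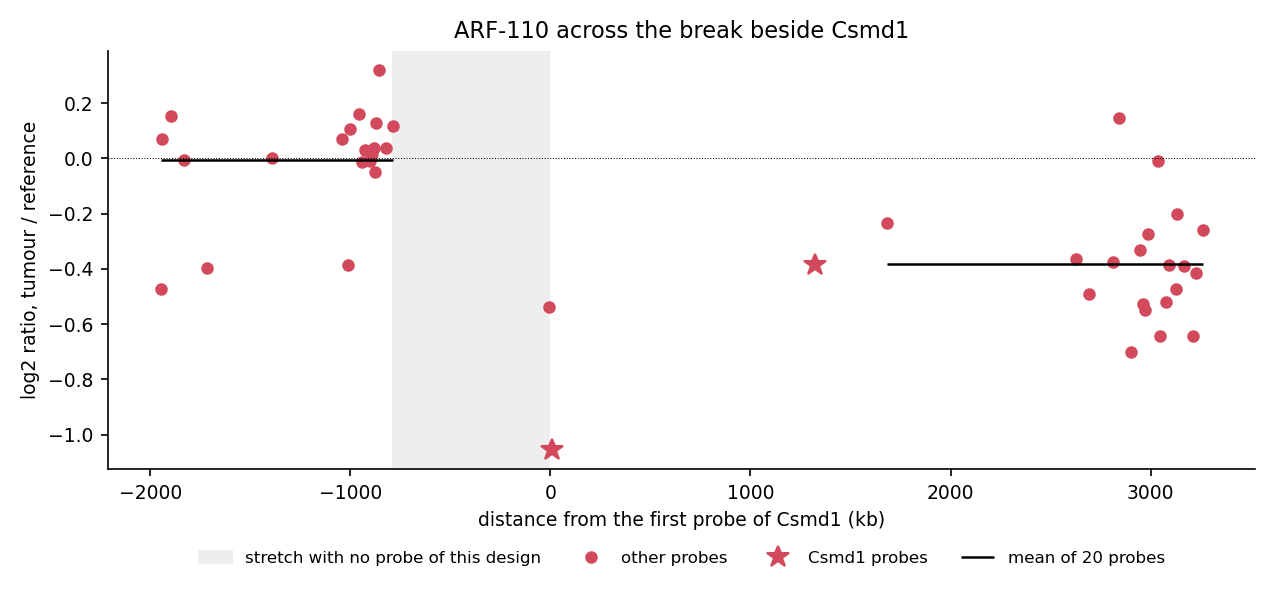
Log2 ratio of single probes of ARF-110 on chromosome 8 by distance from the first Csmd1 probe in kb, with stars for the 2 Csmd1 probes, black lines for the means of 20 probes on either side and grey for the stretch with no probe. The mean is -0.38 after the gene, against 0.00 before the gap, and the 2 Csmd1 probes lie on the lower side.

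Lrp1b encodes an endocytic receptor of the LDL receptor family that is often deleted in human tumours. It had 247 probes at chr2:40607556-42660933. ARF-110 stood at -0.23, ARF-104 at -0.22, ARF-129 at -0.21, ARF-112 at -0.08 and ARF-128 at 0.00. Against its chromosome it was at -0.21, -0.15, -0.22, -0.31 and 0.03 in that order, below 0 in 4 of 5 tumours. Its mean of -0.17 ± 0.13 was the lowest of the 7 genes (SD, n = 5; limma adjusted p = 0.12). The call depended on ARF-128: without it the mean was -0.22 with an adjusted p of 0.044, and with its sparser array in place of the denser -0.21 with an adjusted p of 0.033, settings in which 8.16% and 12.2% of all genes were called lower. Against its flanks Lrp1b was at -0.14, -0.12, -0.12, -0.12 and 0.09, a mean of -0.08 ± 0.10 (SD, n = 5; limma adjusted p = 0.28), and with flanks of 1 Mb the mean was 0.01.

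A short segment over Lrp1b was found in ARF-110, chr2:40229297-45064144 with 27 probes at -0.33. The same 27 probes, less the median of the chromosome, averaged -0.31 there, and -0.53 in ARF-112, -0.51 in ARF-129, -0.42 in ARF-128 and -0.35 in ARF-104 on the denser design. On the sparser array of ARF-128 they averaged -0.28, so they were below 0 on each of the 6 arrays. All 459 denser-design probes of the same interval averaged -0.27 in ARF-112, -0.20 in ARF-129, 0.02 in ARF-128 and -0.13 in ARF-104, nearer to 0 than the 27 in each of the 4 tumours.

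Cntnap2 encodes a neurexin-like adhesion protein that helps to cluster potassium channels on axons. It had the most probes, 284 at chr6:45109095-47337352. ARF-112 stood at -0.21, ARF-129 at 0.06, ARF-128 at 0.11, ARF-110 at 0.20 and ARF-104 at 0.31, and in ARF-104 and ARF-110 it lay on gained segments at 0.37 and 0.28. Against its flanks it was at -0.22, -0.09, 0.09, -0.09 and -0.05 in that order, a mean of -0.07 ± 0.11 (SD, n = 5; limma adjusted p = 0.37). ARF-112 stood lowest both in level and against the flanks.

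Probes of 1 gene varied in a similar way in different tumours. Within a gene the SD over probes ran from 0.34 to 0.40 in ARF-104 and from 0.74 to 0.91 in ARF-128. Of 1176 member probes with a value in the 4 tumours of the denser design, 228 were called lower and 164 higher than their chromosome (limma, adjusted p under 0.05), which is 19.4% and 13.9%, where 18.6% of all 219850 probes were called lower and 16.4% higher. The members' share was thus close to the background in both directions. The counts of calls depended on the fit: with the scan day as a random block 16 were called lower and 6 higher, where 1.58% and 0.519% of all probes were. Without ARF-129 0 were called in either direction, where 1 of 219920 probes was called lower and 0 higher, although 232 member probes lower and 170 higher passed 0.05 there without adjustment. Lrp1b had the largest share called lower, 28.3% of 247, and Fhit the smallest, 10.3% of 116. The largest share called higher was that of Csmd1, 23.1% of 216, and the smallest that of Ptprd, 2.94% of 68.

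The lowest probe of each gene, printed above, was chosen for its mean over these same 4 tumours, so its values are a description. That of Fhit was at -2.02 in ARF-129, -1.16 in ARF-112, -1.45 in ARF-104 and -2.38 in ARF-128. That of Wwox was at -1.81, -1.69, -1.36 and -1.58 in the same order, and that of Lrp1b at -2.07, -1.56, -1.38 and -1.92. Each of these 12 values lies below the -1 of a loss of 1 copy, which was not so for the other 4 genes: Cntnap2 was at -0.55 in ARF-104, Csmd1 at -0.73 in ARF-129, Ptprd at -0.78 in ARF-104 and Immp2l at -0.99 in ARF-128. The 12 values are extremes picked from 116 probes in Fhit, 119 in Wwox and 247 in Lrp1b. How many of all probes lie below -1 in each tumour was not counted, so this does not set the 3 genes apart. Over all autosomal probes the SD of the probe means was 0.48. The highest probe of Fhit was at 1.17, 1.22, 0.93 and 1.92, and that of Cntnap2 at 1.27, 0.92, 1.24 and 2.10, again in that order. The highest probes of Wwox and Csmd1 were not called (limma adjusted p = 0.074 and 0.060) and stood highest in ARF-128, at 2.33 and 3.07. That of Ptprd was at 1.88 in ARF-128 and at 0.04 in ARF-104.

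Across the probes of 1 gene, the log2 ratios of ARF-104 and ARF-129 correlated with a median r of 0.89 over the 7 genes, those of ARF-104 and ARF-112 with 0.86, and those of ARF-112 and ARF-129 with 0.88. With ARF-128, whose array is the noisiest and was scanned on its own day, the medians ran from 0.58 to 0.70. Over all autosomal probes the same 6 pairs gave r of 0.58 to 0.86. The points share their probes, their reference DNA and, except for ARF-128, their scan day, and r is given as a description.

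**Figure D3:**
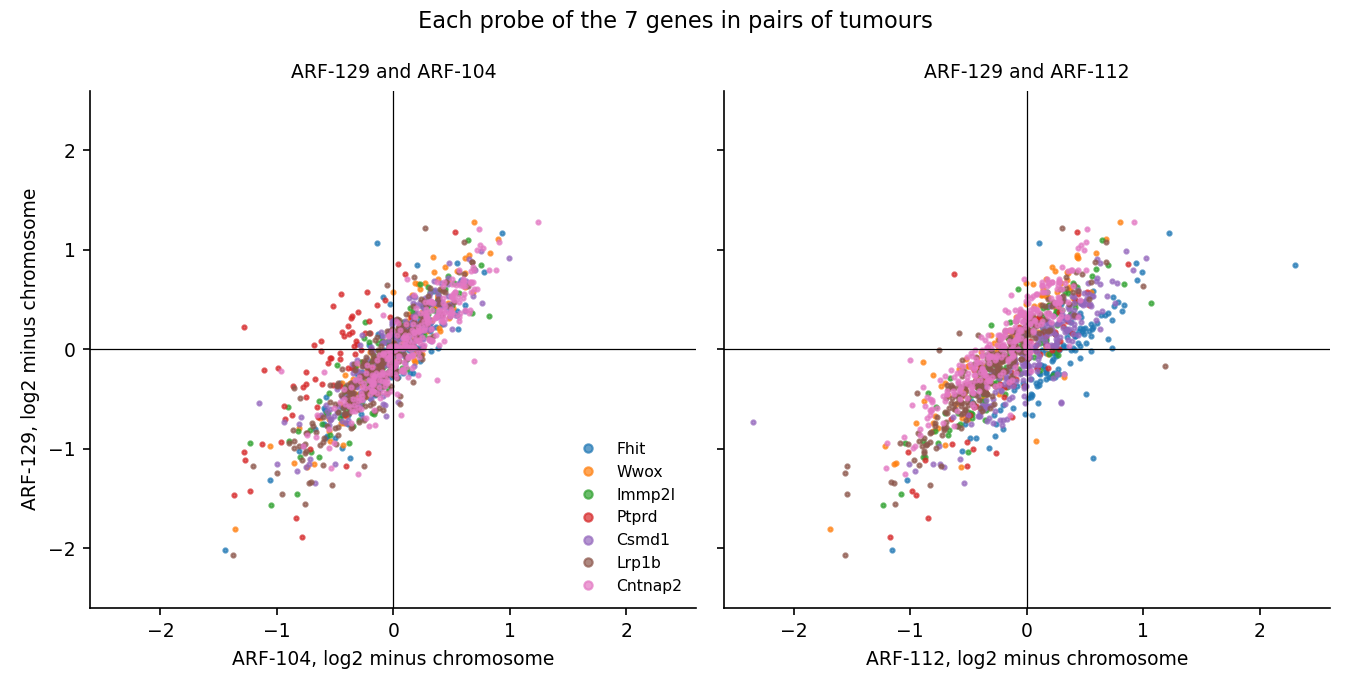
Log2 ratio minus the chromosome's median of each probe of the 7 genes, in ARF-129 (vertical) and in ARF-104 or ARF-112 (horizontal), coloured by gene. The points follow the diagonal in both panels, with a median r within genes of 0.89 and 0.88.

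The 17 probes that both designs share allow the same sequence to be read in ARF-128 on 2 arrays. Over these probes the denser and the sparser array of ARF-128 correlated with r = 0.03, while the sparser arrays of ARF-128 and ARF-110 gave 0.74 and the denser arrays of ARF-112 and ARF-129 0.87. The Lrp1b probe printed as shared was at -0.81 in ARF-129, -0.71 in ARF-112, -0.86 in ARF-104 and -0.81 in ARF-128 on the denser arrays, and in sparser-design readings at 0.11 in ARF-128 and -0.03 in ARF-110. The Immp2l probe printed as shared was at -1.08, -0.89, -0.80 and -1.03 in those 4 tumours, and on the sparser design at -0.35 in ARF-128 and -0.12 in ARF-110. Of the 17 probes, 7 were called lower on the denser design, and over those 7 the mean was -0.95 on the denser and -0.37 on the sparser array of ARF-128. The 7 were chosen on the denser arrays, and the 2 printed probes were picked after their values were seen.

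Runs of neighbouring probes were rarely low together. A window of 5 neighbouring probes was counted as low where its mean was at least 0.5 below the chromosome's median in at least 3 of the 4 tumours of the denser design. This held for 16 of 1148 windows, or 1.39%, where 0.93% of the windows of genes with at least 20 probes were low, and 1 window was high, where 0.356% were. Of the 16 low windows Lrp1b held 7, Immp2l 4, Ptprd 3 and Wwox 2. Neighbouring windows share probes, so these are fewer separate stretches than windows.

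**Figure D4:**
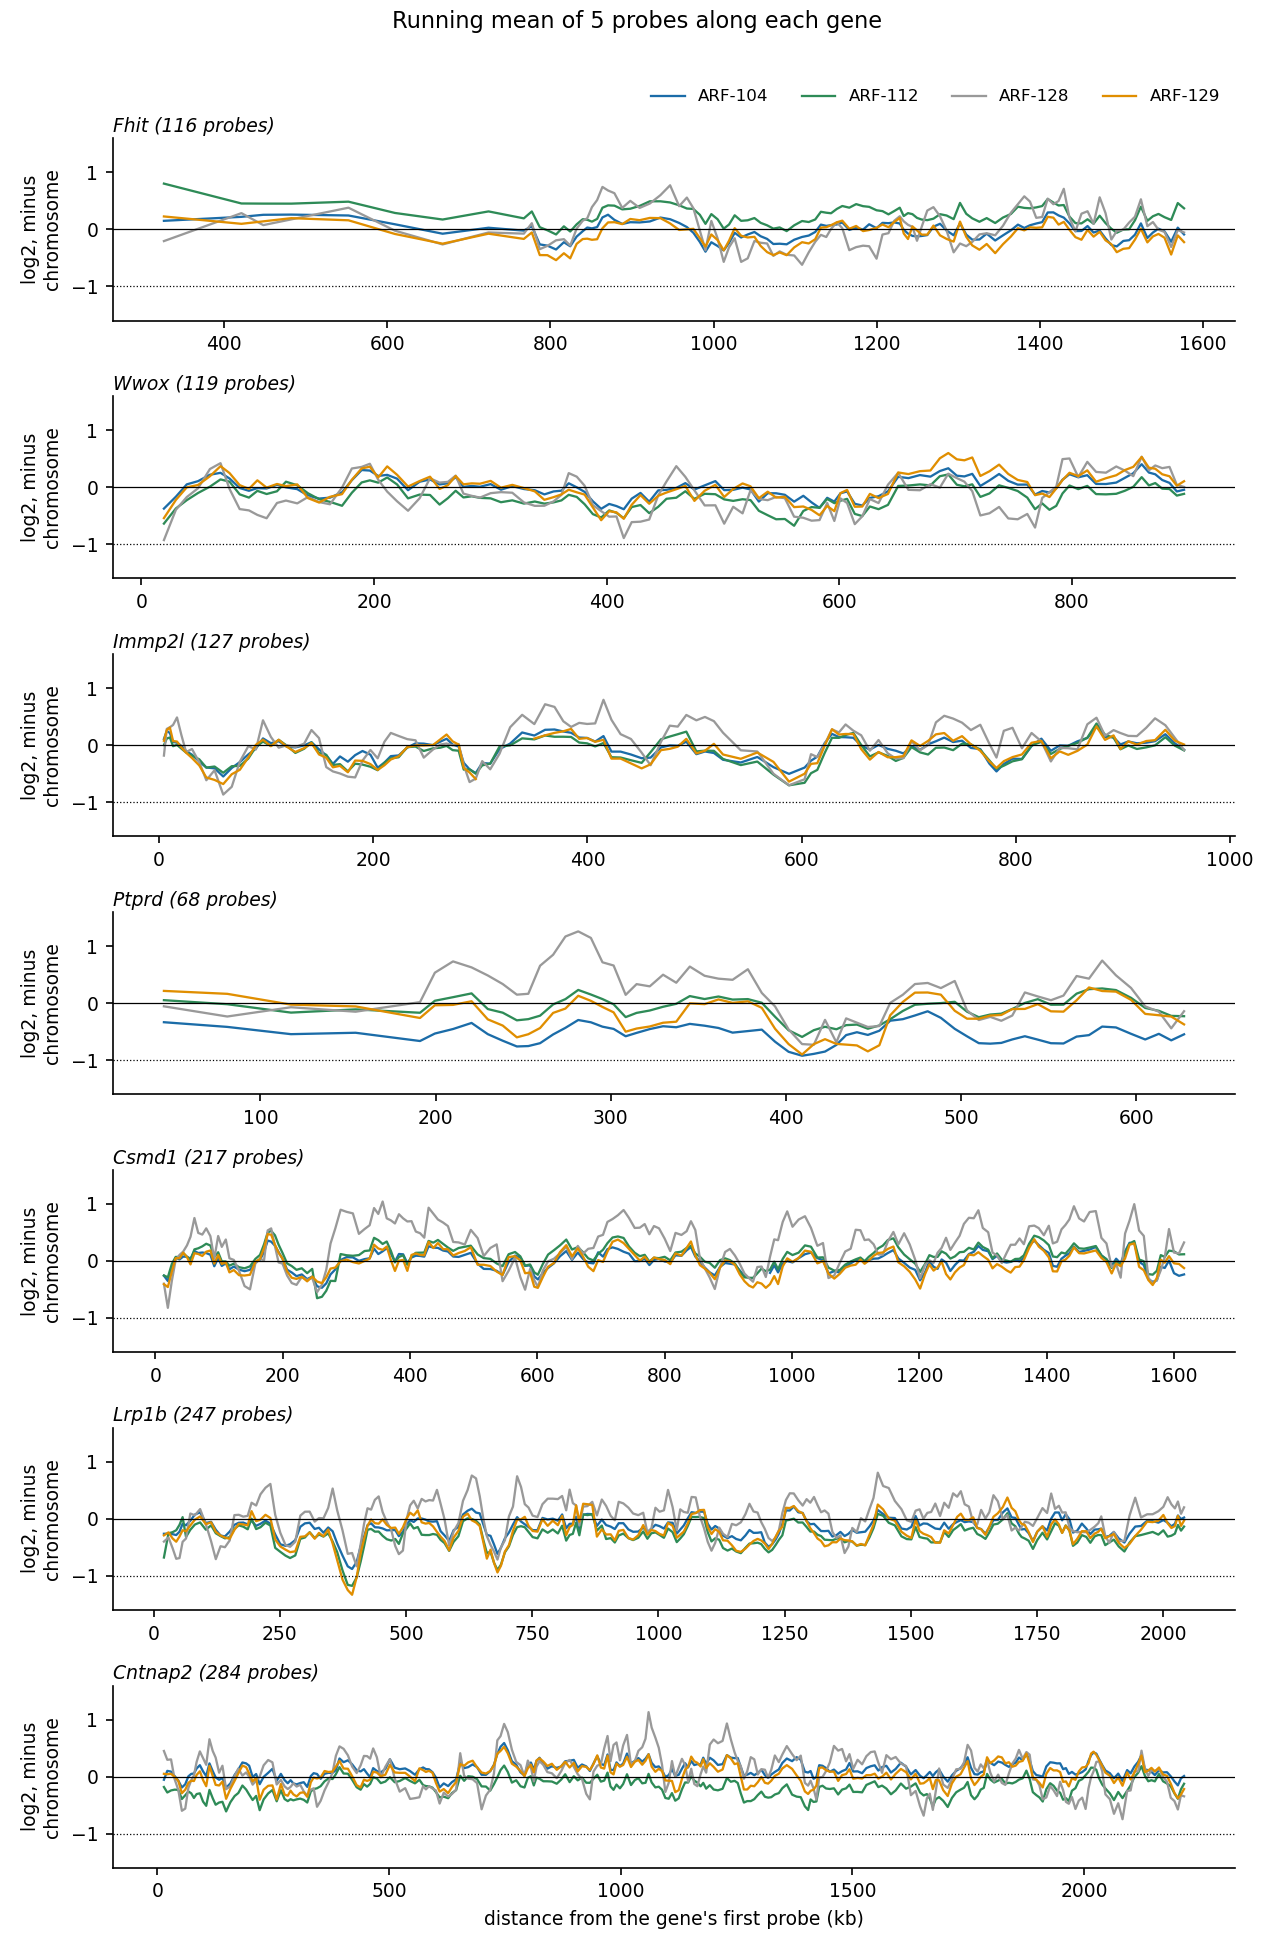
Mean log2 ratio minus the chromosome's median over 5 neighbouring probes, by distance from the first probe of each gene in kb in the direction of rising mm7 position, with 1 line per tumour of the denser design and a dotted line at -1. The lines rise and dip together, while Ptprd in ARF-104 and Cntnap2 in ARF-112 lie below the other tumours along much of the gene.

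The lowest window of all was in Lrp1b, at chr2:40977784-41016619, about 370 kb from the gene's first probe. It averaged -1.33 in ARF-129, -1.18 in ARF-112, -0.88 in ARF-104 and -0.60 in ARF-128. The 3 middle probes, printed above, were low in each of the 4 tumours, with means of -1.73 ± 0.32, -1.22 ± 0.33 and -1.40 ± 0.24 (SD, n = 4; limma adjusted p = 0.0057, 0.0060 and 0.0057). The 2 outer probes averaged -0.44 ± 0.99 and -0.20 ± 0.49 and were not called. The window was chosen for its mean over these same 4 tumours, so its values and adjusted p are a description. Of all probes, 18.6% were called lower in the same fit. ARF-128 stood at 0.95 and 0.52 on the outer probes, where the other tumours were between -1.37 and -0.34. No sparser-design probe lies in this window, so ARF-110 has no value there.

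**Figure D5:**
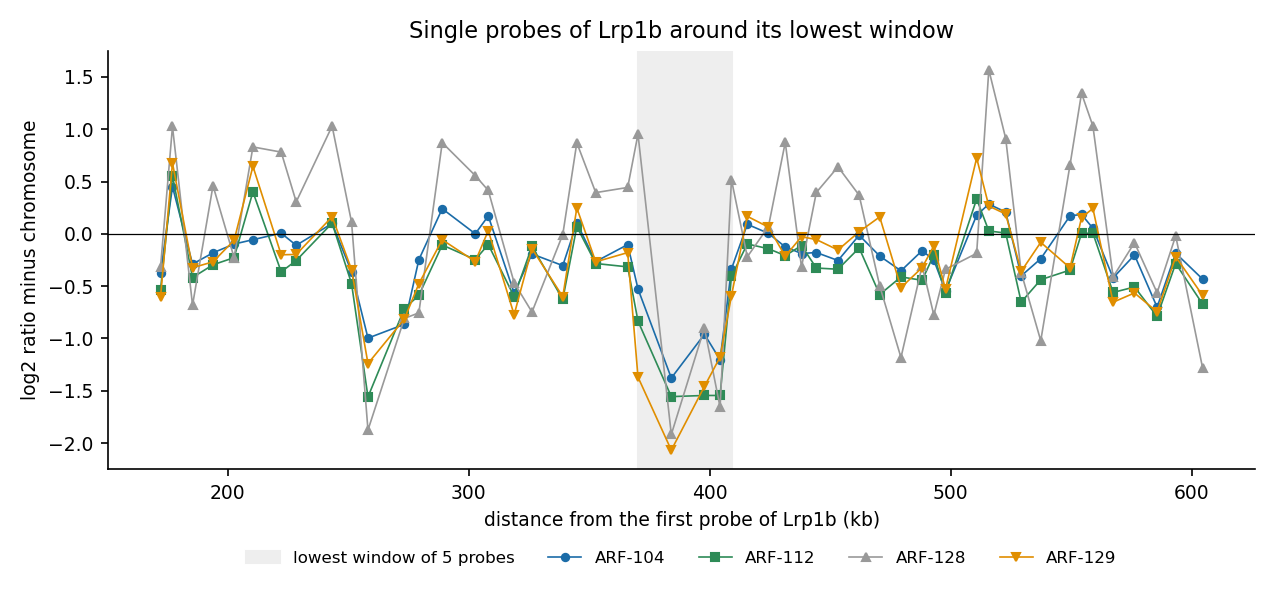
Log2 ratio minus the chromosome's median of single Lrp1b probes by distance from the gene's first probe in kb, with 1 line per tumour of the denser design and the lowest window in grey. The 3 middle probes of the window lie between -2.07 and -0.90 in the 4 tumours, and the probes on either side return towards 0.

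The lowest windows of the other genes were shallower. In Ptprd the lowest, 396 kb from the first probe, averaged -0.90 in ARF-129, -0.59 in ARF-112, -0.92 in ARF-104 and -0.72 in ARF-128. These values are against the chromosome's median, and the large segment that holds Ptprd itself lay 0.60 lower than that median in ARF-104 and 0.18 lower in ARF-129, so a window of Ptprd passes the limit of 0.5 in ARF-104 with no further drop. In Immp2l the lowest was at -0.68, -0.48, -0.55 and -0.87 in that order, and in Wwox the first 5 probes were lowest with -0.54, -0.64, -0.37 and -0.93. In Csmd1 it was at -0.36, -0.65, -0.45 and -0.55. The lowest windows of Fhit and Cntnap2 averaged -0.32 and -0.37 over the 4 tumours. None of these reached -1 in any of the 4 tumours.

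Each gene was also cut into 3 parts with equal numbers of probes. Along Wwox the middle part was the lowest in each of the 4 tumours, at -0.23 in ARF-129, -0.35 in ARF-112, -0.16 in ARF-104 and -0.34 in ARF-128. The part of Wwox before it was at 0.01, -0.16, 0.01 and -0.16 in that order, and the part after it at 0.23, -0.06, 0.12 and 0.06. Along Lrp1b the first part was the lowest in each tumour, at -0.29, -0.36, -0.20 and -0.08. The first part of Immp2l and the middle part of Csmd1 were likewise the lowest in each of the 4 tumours. How often 1 part is lowest in each tumour was not counted in other genes. Over all autosomal probes the ratios of these arrays correlated with r of 0.58 to 0.86, so the pattern is not shown to be particular to these genes. These are means over 39 to 40 probes in Wwox and 83 in Lrp1b, with no test.

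Base composition moved weakly with the ratio of a probe. Over the 1178 probes the number of T in the 60 bases correlated with the mean ratio at r = -0.27, and over all autosomal probes at -0.29. A run of at least 4 T, written TTTT and searched on the deposited strand, was found in 33.4% of the member probes and in 37.7% of all, and the member probes with such a run averaged -0.14 against 0.02 without. The cutting sites of the enzymes used to fragment the DNA, AluI (AGCT) and RsaI (GTAC), were present in 0 of the member probes and in 0.035% of all. The part of base composition in the shared pattern was not tested.

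To read each tumour apart from that shared pattern, each probe of a denser array was set against the mean of the same probe on the other 3 denser arrays, an alternative chosen after the data had been seen. The noise was then 0.264 in ARF-129, 0.241 in ARF-112, 0.227 in ARF-104 and 0.582 in ARF-128, against 0.486, 0.394, 0.366 and 0.774 before the subtraction. Segment boundaries appeared inside a gene in 2 of 28 pairs, both in Cntnap2, against 2.01% of the 5536 pairs of genes with at least 20 probes under the same subtraction. In ARF-112 a segment of 334 probes at -0.27 relative to the other tumours, chr6:43431689-47077122, ended inside the gene and held 249 of its 284 probes, which met the criterion for a loss. This was the 1 loss in 28 pairs, against 0.65% of the 5536. In ARF-128 a segment at 0.13 ended close by, at position 47005865, and the next was at -0.21. The subtraction carries a change in 1 tumour into the values of the others with the opposite sign, so these 2 boundaries are not independent of each other.

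Among 30 other very large or fragile-site genes, 21 had a value in all 5 tumours. None was called in either direction against the chromosome (0 of 21 also without adjustment) or against the flanks (1 lower without adjustment). Their median difference from the chromosome was -0.01 and from the flanks -0.03. Of all genes with at least 20 probes, 10 of 1315 were called lower and 3 higher against the chromosome, and 34 and 8 of 1310 against the flanks, so calls were also few among other genes read by many probes. Dlg2 itself had no probe under that symbol, but its accession is carried by 160 probes under the older symbol Dlgh2, seen after the values were known, which averaged 0.02 ± 0.05 against their flanks (SD, n = 5; limma adjusted p = 0.70).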

How the data were processed

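Per the file headers, the processed intensity of a spot in either colour was the output of the authors' Agilent Feature Extraction, in version 8.5.1.1 for sparser arrays and 9.1.3.1 or 9.5.3.1 for denser ones, with spatial detrending and linear dye normalization, and the log10 ratio of each spot stands beside them. The deposited value table gives these ratios uncentred, in log10 for sparser and log2 for denser arrays. It served as an alternative, as did normexp background correction with an offset of 50.

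Here log2 of red over green processed intensity was taken, control and outlier spots were left out, repeated probes averaged, and each array centred on its autosomal median. Positions are mm7, as 1 denser-design header states, and were carried to the sparser design by probe name. A gene's value is the mean of its probes. Values were tested against 0 with limma 3.58.1 (intercept, eBayes, two-sided, Benjamini-Hochberg over all genes or probes), which does not see how much reference DNA itself would vary and treats the 5 tumours as separate animals, as their titles imply. With 4 mice named in the design text, it is not settled that each of the 5 tumours came from its own animal. Segments came from penalised least squares (PELT, penalty 5 log n times the squared noise, at least 5 probes). Flanks needed at least 5 probes. The scripts were tested on simulated data. Python 3.11.15 was used with matplotlib 3.10.9, numba 0.67.0, scipy 1.17.1, pandas 2.3.3 and numpy 2.4.6, and R 4.3.3 with statmod 1.5.0. The number of arrays limits the precision.

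The 9 genes, the 30 further genes and the tests were chosen with earlier results of these data known. Named probes were the lowest and highest of each gene and up to 3 past the threshold by size, with the exceptions stated.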

Additional observations from a re-analysis of the deposited data

Results flagged for a closer look

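Against its flanks, Lrp1b stood at 0.087 in ARF-128 while the other 4 tumours lay between -0.14 and -0.12, so 1 tumour stood far from a tight group of others. This was the only 1 of 21 sets of 5 tumours in which that happened (level, difference from the chromosome and difference from the flanks for each of the 7 genes), and about 1 in 20 such sets is marked by chance. ARF-128 has the noisiest array, with a noise of 0.774, and on its sparser array, which holds 2 Lrp1b probes, the same difference was -0.07. The part of the noise in the difference was not tested.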

How the results depend on the processing

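The alternatives gave 231 values for single genes, of which 199 kept their direction and their side of the threshold, 7 passed it where the reported value did not, and 25 turned their sign; no reversed value was called. Normexp background correction turned Wwox (0.022) and Csmd1 (0.032) against the chromosome, and Wwox (0.0089), Immp2l (0.013) and Csmd1 (0.051) against the flanks. The sparser array of ARF-128 turned Cntnap2 against the chromosome (-0.049) and Fhit against the flanks (0.071), and the mean of its 2 arrays did so too (-0.023 and 0.032). With only the probes of both designs, 1 to 4 a gene, Fhit (-0.36), Wwox (0.10), Ptprd (0.017) and Cntnap2 (-0.13) turned against the chromosome and Wwox (0.11) against the flanks. The median of probes put Fhit at 0.017 against the flanks, and flanks of 1 Mb put Fhit at 0.030, Immp2l at 0.018 and Lrp1b at 0.0091. Leaving out each tumour in turn, Fhit ran from -0.0021 to 0.090, Csmd1 from -0.15 to 0.080 and Cntnap2 from -0.028 to 0.054 against the chromosome, and Fhit from -0.021 to 0.0054 and Csmd1 from -0.17 to 0.0065 against the flanks; Csmd1 turned without ARF-110. The adjusted p of Lrp1b against the chromosome ran from 0.024 to 0.52 over the alternatives.

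The number of the 7 genes called lower than the chromosome was 1 with the sparser array of ARF-128 and with the mean of its arrays (Lrp1b in both, where 12.2% and 15% of all genes were called lower), 2 with the probes of both designs (Csmd1 and Lrp1b, where 12.5% were, also against the flanks, again 2, where 14.2% were), and from 0 to 1 when each tumour was left out, with Lrp1b called without ARF-128 (8.16% of all genes). When ARF-129, ARF-112 or ARF-104 was left out, 0 genes of the whole table were called against the chromosome. Member probes called were 16 lower and 6 higher with the scan day as a random block (1.58% and 0.519% of all probes), 107 lower and 90 higher with normexp (7.54% and 11.1%), and between 0 and 372 lower and 0 and 248 higher when a tumour was left out, with the most without ARF-128 (28% and 27.3% of all probes) and 0 without ARF-129 (1 and 0 of 219920). The count of losses inside a gene was 0 under each other setting tried and 1 after subtraction of the other tumours, which was added after seeing the data (0.65% of 5536 pairs). Normexp gave 1 boundary inside a gene, Cntnap2 in ARF-112, without a loss. No paired analysis was possible because all samples form 1 group. The cause of these shifts was not tested. Depth limits the search to the shifts given for 20, 50 and 100 probes.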
